A study of Mus musculus with 8 samples.

Results

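The genes described here encode chaperones and folding enzymes of the endoplasmic reticulum (ER), the machinery that removes misfolded proteins from it, and the sensors and factors of the unfolded protein response. They are 35 genes listed by symbol, with earlier results of these data known when the list was made. All 35 were among the 11836 genes tested. Their 75 probe sets were those with exactly 1 of these symbols in the platform annotation, and 71 of them passed the filter on low values.

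Both groups are cultures of bone marrow cells from C57BL/6 mice with a Rosa26-Cre-ERT2 knock-in, transformed by retroviruses that carry Hoxa9 and a floxed Meis1, and grown with interleukin-3. The 4 arrays of Meis1 deleted cells come from cells given 2 µM 4-hydroxytamoxifen, which activates the recombinase and removes the Meis1 cDNA, so that Hoxa9 remains. The 4 arrays of Hoxa9 and Meis1 cells come from the same kind of cells without the drug, so deletion and drug cannot be told apart. Cre-ERT2 and retroviral Hoxa9 are shared by both groups, and nothing in the labels says that the arrays of a group are separate cultures, so the p-values measure a spread that may be technical.

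Proteins that are secreted, placed in membranes or packed into granules are folded in the ER. When unfolded proteins accumulate there, 3 membrane sensors act: IRE1 (Ern1) splices the Xbp1 messenger RNA, ATF6 (Atf6) is cut to release a transcription factor, and PERK (Eif2ak3) slows translation and raises ATF4. XBP1 and ATF6 then raise chaperones, export and degradation genes through short promoter elements. Myeloid progenitors make large amounts of granule protein, and the response is best known from plasma cells.

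The ER stress element (ERSE), bound by ATF6 with the factor NF-Y, was searched in RefSeq promoters (GRCm38.p6) that run from 250 bases before to 50 after each gene's start. The letters were CCAAT, 9 bases of any kind and CCACG, on both strands. It was present in 39 of 32851 promoters (0.119%) and in 7 of the 29 member genes with a promoter in the table (24.1%). Atf6, Sec61a1, Hspa13, Manf, Derl1 and Hyou1 had no entry there. The 8 sites are printed because they mark the genes with the textbook element, whose expression is followed further on. Each line reads 5′ to 3′ along the strand of the match, with 10 flanking bases on each side, and capitals mark the CCAAT and CCACG boxes.
Hspa5, chr2:34772015-34772053, plus strand: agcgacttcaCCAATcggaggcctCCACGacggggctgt
Hsp90b1, chr10:86705628-86705666, minus strand: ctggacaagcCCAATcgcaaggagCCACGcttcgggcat
Hsp90b1, chr10:86705523-86705561, plus strand: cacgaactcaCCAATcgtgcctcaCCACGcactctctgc
Dnajc3, chr14:118937817-118937855, plus strand: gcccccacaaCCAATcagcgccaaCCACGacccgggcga
Creld2, chr15:88819510-88819548, minus strand: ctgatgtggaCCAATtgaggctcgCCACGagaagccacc
Syvn1, chr19:6046522-6046560, plus strand: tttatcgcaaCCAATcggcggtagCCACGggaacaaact
Derl3, chr10:75893232-75893270, minus strand: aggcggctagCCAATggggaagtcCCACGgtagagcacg
Pdia6, chr12:17266481-17266519, plus strand: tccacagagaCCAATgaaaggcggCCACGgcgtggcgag
The spacers between the boxes differ from gene to gene, and Hsp90b1 holds a pair of sites on opposite strands. A match is a description of the letters and not evidence of a bound site. Only exact matches were counted, so elements with other letters or outside the window were missed.

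A second form, ERSE-II (ATTGG, 1 base of any kind and CCACG, both strands), was present in 12 promoters (0.0365%). Among the member genes it was in Dnajb11, at positions 7 to 17 after the start, and Herpud1. The XBP1-type element UPRE (TGACGTGG) was in 222 promoters (0.676%) and in 1 member, Sec24d. The ATF4-type element CARE (TGATGCAA) was in 294 promoters (0.895%) and in 1 member, Herpud1. In the member genes 0 of these matches overlapped another motif searched. The 200 bases before the start are printed for 4 genes that hold an element and stand for the different outcomes described further on: Creld2, which rose, Herpud1 and Sec24d, which fell, and Hspa5, which did not pass the test. Capitals mark the ERSE in Hspa5 and Creld2, the CARE (on the minus strand, position -112 to -105) and the ERSE-II (position -52 to -42) in Herpud1, and the UPRE (position -26 to -19) in Sec24d. The Creld2 element lies on the minus strand, so its capitals are the reverse complement of the line above.
Hspa5, chr2:34771890-34772089, plus strand: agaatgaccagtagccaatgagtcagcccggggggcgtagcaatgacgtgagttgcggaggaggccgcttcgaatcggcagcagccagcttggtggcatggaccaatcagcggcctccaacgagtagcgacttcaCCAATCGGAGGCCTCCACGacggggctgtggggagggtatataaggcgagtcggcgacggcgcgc
Creld2, chr15:88819446-88819645, plus strand: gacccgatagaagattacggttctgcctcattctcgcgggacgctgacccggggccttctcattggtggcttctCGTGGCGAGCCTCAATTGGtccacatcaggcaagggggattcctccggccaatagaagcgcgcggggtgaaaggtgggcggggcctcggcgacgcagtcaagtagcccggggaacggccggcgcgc
Herpud1, chr8:94386229-94386428, plus strand: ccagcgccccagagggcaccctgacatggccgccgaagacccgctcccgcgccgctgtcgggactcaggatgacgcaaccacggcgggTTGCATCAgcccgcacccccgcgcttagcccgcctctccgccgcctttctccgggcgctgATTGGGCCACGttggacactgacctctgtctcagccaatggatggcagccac
Sec24d, chr3:123267296-123267495, plus strand: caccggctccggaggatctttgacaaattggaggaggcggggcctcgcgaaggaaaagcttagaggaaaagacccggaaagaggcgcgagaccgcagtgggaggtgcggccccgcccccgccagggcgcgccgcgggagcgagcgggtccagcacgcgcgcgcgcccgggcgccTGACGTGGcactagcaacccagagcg

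All values are log2 expression values of the deposited table, 1 per probe set and array. A gene was called higher or lower where limma's test gave an adjusted p under 0.05 after Benjamini-Hochberg adjustment over 11836 genes. The test was fitted to all probe sets that passed the filter, and a gene was represented by its probe set with the highest mean. A positive fold change means a higher level in Meis1 deleted cells. Because probe sets differ in brightness, the level of 1 of the 35 genes is not ranked against that of another.

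Several facts of the arrays bear on all results. Array medians lay between 4.69 and 4.74. The kept Meis1 probe set read 5.02 ± 0.07 in Meis1 deleted and 5.00 ± 0.05 in Hoxa9 and Meis1 arrays (SD, n = 4 each), so it did not show the labelled loss, and whether it can read the retroviral cDNA was not tested. Replicate 1 of the Meis1 deleted cells stood apart: its Gapdh control probe sets differed by 0.72 between the 3′ and the 5′ end, while the 3 other Meis1 deleted arrays lay between -0.07 and 0.04 and the Hoxa9 and Meis1 arrays between -0.05 and -0.01. Over the groups this measure averaged 0.17 ± 0.37 in Meis1 deleted and -0.02 ± 0.02 in Hoxa9 and Meis1 arrays (SD, n = 4 each, two-sided exact permutation p = 0.486, smallest possible 0.0286). That array was the farthest of its group from the group median for 22 of the 35 genes (62.9%) and for 50.8% of all genes tested. A spiked bacterial control, bioB, split the arrays into one set with Meis1 deleted 1, 2 and 3 and Hoxa9 and Meis1 1 and 2, and a second set with the other 3 arrays (bioB at 4.32 to 4.74 in the first and 6.78 to 6.97 in the second). Results without that array or within the sets are given beside the counts below. Of 10 myeloid progenitor markers, 9 lay above the array median in both groups, and 5 were lower and 3 higher in Meis1 deleted cells. Cd34 (-1.87), Cd33 (-0.96) and Elane (-0.50) were among the lower ones and Mpo (0.59) among the higher ones, and their summed level was log2 14.48 to 14.50 in Meis1 deleted and 14.51 to 14.52 in Hoxa9 and Meis1 arrays. Of 7 B and plasma cell markers, 6 lay below it in both groups, Jchain, Tnfrsf17 and Pou2af1 among them. Of 10 macrophage markers, 9 were higher and 0 lower in Meis1 deleted cells, with a summed level of log2 13.33 to 13.37 in Meis1 deleted and 11.47 to 11.53 in Hoxa9 and Meis1 arrays. Of 4 megakaryocyte markers 3 passed the filter, and of these only Pf4 was called (3.84, higher), while Itga2b (-0.21) and Gp9 were not. Of 6 mast cell and basophil markers 3 passed the filter. Mcpt8 was lower (-0.74), Ms4a2 was higher (0.20) and Tpsb2 was not called. The part of these marker changes in the results below was not tested. In bulk RNA, fewer cells of a type and less RNA per cell cannot be told apart.

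More of the 35 genes were lower than higher in Meis1 deleted cells. 15 were lower (42.9%), against 17.5% of all genes tested, 7 were higher, against 18.1% of all genes, and 13 were not called. In either direction 22 were called (62.9%), against 35.5% of all genes. Well-expressed genes were called more often: among genes with a mean level of at least 9, a level set after the values were seen, 43.0% of 2605 were called, and 19 of the 30 member genes at that level (63.3%). The changes were small, with 0 genes changing 2-fold. They had a range from -0.78 to 0.55 and a median of -0.12, against a median of -0.00 over all genes. Called changes of at least 0.3 in size were seen in 11 genes, 3 higher and 8 lower, against 20.2% of all genes (11.3% higher and 8.84% lower). The 2 groups of arrays did not overlap for 26 of the 35 genes (74.3%), against 38.6% of all genes, and these included the 22 called ones. The direction of all 22 was the same in both bioB sets, which follows from the lack of overlap and is no separate test. Within the first set 4 were called higher and 9 lower (median -0.13). There 2114 of all 11836 genes were called, against 4206 over all arrays. The second set has 1 Meis1 deleted array, and the median of the 35 genes there was -0.11. Calls lost within the first set included Atf6 (-0.54, adjusted p = 0.0765), Hyou1 and Sec61a1. Calls lost within the second included Eif2ak3 (-0.24), Herpud1 and Pdia5. With the set as a block the counts were 7 higher and 16 lower, and without Meis1 deleted replicate 1 they were 8 higher and 18 lower. Of all genes 4241 were called with the block, and 3426 to 4673 with 1 array left out.

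**Figure D1:**
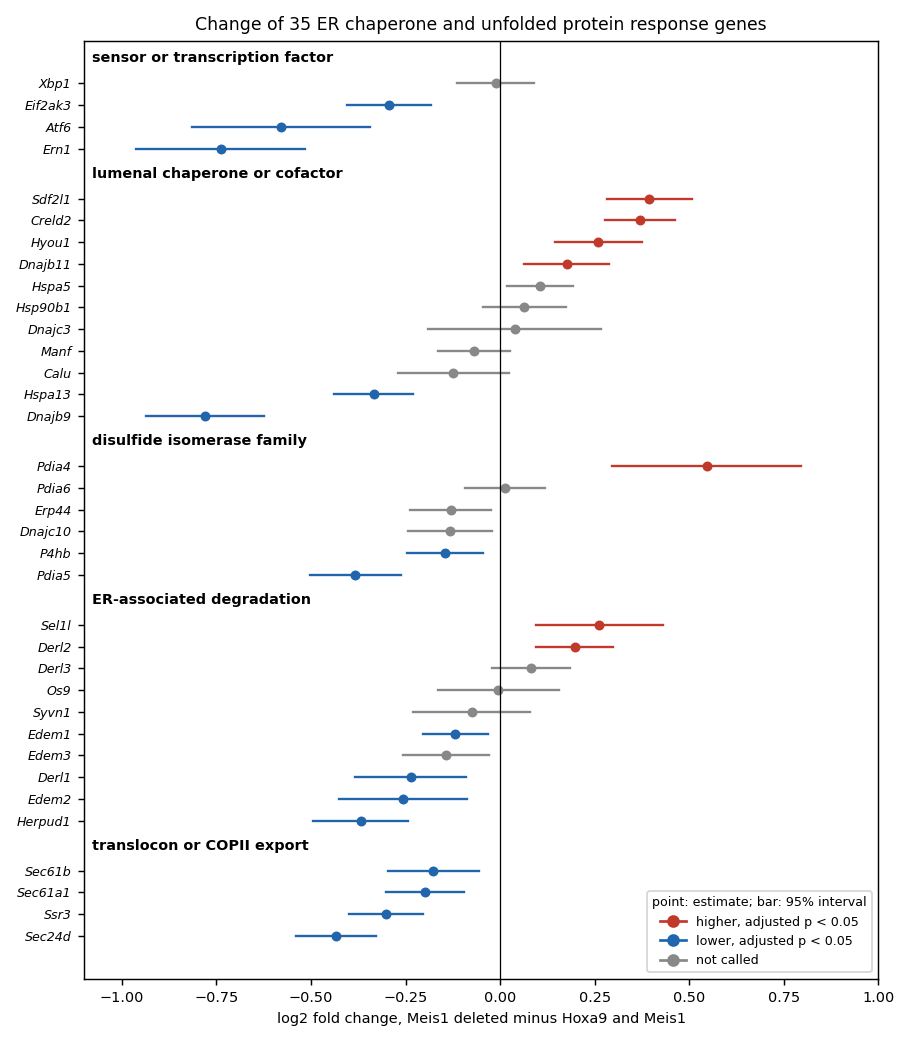
Log2 fold change of each of the 35 genes, Meis1 deleted minus Hoxa9 and Meis1, with bars for the 95% interval, grouped by role; colour shows the call at an adjusted p under 0.05. The membrane sensors and all 4 translocon and export genes lie left of 0 and are called lower. Xbp1 lies at -0.01 and is not called, while lumenal chaperones lie on both sides.

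The 3 membrane sensors were lower in Meis1 deleted cells, and Xbp1 was not called. So 0 of these 4 genes were higher and 3 lower (median -0.44), against 18.1% and 17.5% of all genes. Ern1, which encodes IRE1, the sensor that splices Xbp1, measured 9.93, 9.59, 9.51 and 9.53 in Meis1 deleted arrays, against 10.52, 10.43, 10.27 and 10.31 in Hoxa9 and Meis1 arrays. All 4 Meis1 deleted arrays lay below all 4 others, at 0.599 times the level (log2 fold change -0.74 ± 0.10 SE, limma adjusted p = 3.57e-04). Of its probe sets, 4 were kept and all 4 were lower, by -0.26 to -1.26. Within the first bioB set its difference was -0.79 and within the second -0.75. Atf6 measured 7.86, 7.41, 7.37 and 7.64 in Meis1 deleted arrays, against 8.09, 8.08, 8.20 and 8.23 in Hoxa9 and Meis1 arrays. The groups did not overlap, with replicate 1 the highest Meis1 deleted array (-0.58 ± 0.10, adjusted p = 0.00209 in limma's test). A second Atf6 probe set was lower too, by -0.37.

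Eif2ak3, which encodes PERK, the kinase that slows translation, measured 7.996, 7.86, 7.86 and 7.96 in Meis1 deleted arrays, against 8.23, 8.22, 8.17 and 8.24 in Hoxa9 and Meis1 arrays. The groups did not overlap (-0.29 ± 0.05, limma adjusted p = 0.0014). Xbp1, the transcription factor made from the RNA that IRE1 splices, measured 12.30, 12.38, 12.35 and 12.35 in Meis1 deleted arrays, against 12.44, 12.34, 12.33 and 12.32 in Hoxa9 and Meis1 arrays. The groups overlapped, and the 95% interval of the difference ran from -0.11 to 0.09 (-0.01 ± 0.05, adjusted p = 0.865 by limma). Of 4 Xbp1 probe sets, 3 were not called, and 1 with a low level, 6.60 in Meis1 deleted and 6.23 in Hoxa9 and Meis1 cells, was higher by 0.36 (limma adjusted p = 0.0287 over all kept probe sets). The sources used here do not say whether a probe set reads spliced or unspliced Xbp1.

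Lumenal chaperones and cofactors went both ways: 4 of 11 were higher and 2 lower (median 0.06). Over all genes 18.1% were higher and 17.5% lower, so the share of lower ones was near that of all genes. Hspa5, which encodes BiP, the main ER Hsp70 and the protein that restrains the sensors, measured 11.98, 12.01, 12.00 and 12.01 in Meis1 deleted arrays, against 11.91, 11.88, 11.88 and 11.91 in Hoxa9 and Meis1 arrays. The groups did not overlap, but the difference was small and missed the threshold (0.11 ± 0.04, interval 0.02 to 0.19, limma adjusted p = 0.0607). It passed in several alternatives, among them without Meis1 deleted replicate 1 (adjusted p = 0.044, difference 0.11), and a second probe set was called higher (0.20, adjusted p = 0.0476 over all kept probe sets). That probe set read 12.02, 11.73, 11.76 and 11.81 in Meis1 deleted arrays, against 11.60, 11.61, 11.67 and 11.65 in Hoxa9 and Meis1 arrays. Hsp90b1, which encodes GRP94, the ER Hsp90, measured 12.24, 12.07, 12.10 and 12.17 in Meis1 deleted arrays, against 12.07, 12.08, 12.09 and 12.08 in Hoxa9 and Meis1 arrays. These overlapped (0.06 ± 0.05, limma adjusted p = 0.348). Its second probe set read 10.12 in Meis1 deleted replicate 1 and 11.43, 11.48 and 11.34 in the other Meis1 deleted arrays.

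Sdf2l1, a partner of the BiP co-chaperones, measured 11.30, 11.13, 11.17 and 11.16 in Meis1 deleted arrays, against 10.75, 10.80, 10.81 and 10.82 in Hoxa9 and Meis1 arrays. It was 1.31 times as high in Meis1 deleted cells with no overlap (0.39 ± 0.05, limma adjusted p = 2.28e-04). Creld2, an ER protein induced by folding stress, measured 9.81, 9.87, 9.82 and 9.78 in Meis1 deleted arrays, against 9.46, 9.45, 9.42 and 9.48 in Hoxa9 and Meis1 arrays. This was among the tightest separations, with SDs of 0.04 in Meis1 deleted and 0.02 in Hoxa9 and Meis1 arrays (0.37 ± 0.04, limma adjusted p = 1.13e-04). Smaller increases were those of Hyou1, a large Hsp70-like exchange factor for BiP (0.26 ± 0.05, limma adjusted p = 0.00364), and Dnajb11, the co-chaperone ERdj3 (0.18 ± 0.05, limma adjusted p = 0.0214). The Dnajb11 call was lost without Meis1 deleted 2 or 4 or Hoxa9 and Meis1 1 or 2 (0.15 to 0.17, adjusted p up to 0.0619).

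Dnajb9, the co-chaperone ERdj4 and a well-known XBP1 target, had the largest estimated difference of the 35 genes. It measured 9.59, 9.30, 9.33 and 9.36 in Meis1 deleted arrays, against 10.20, 10.23, 10.13 and 10.14 in Hoxa9 and Meis1 arrays. Replicate 1 was the highest Meis1 deleted array, and all 4 lay below the others (0.582 times the level, -0.78 ± 0.07, limma adjusted p = 2.33e-05). Hspa13, an Hsp70 family member of microsomes, measured 10.24, 10.25, 10.26 and 10.14 in Meis1 deleted arrays, against 10.60, 10.52, 10.54 and 10.57 in Hoxa9 and Meis1 arrays, with no overlap (-0.33 ± 0.05, limma adjusted p = 4.38e-04). Both calls held with each array left out in turn. Dnajc3, an inhibitor of PERK and co-chaperone of BiP, was not called (0.04 ± 0.10, limma adjusted p = 0.798), and 1 of its 5 probe sets was lower. Manf, a secreted ER stress protein, and Calu, a calcium-binding protein, were not called either (-0.07 ± 0.04 and -0.12 ± 0.07). Calu passed without Meis1 deleted replicate 1 (-0.17, adjusted p = 0.0286).

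**Figure D2:**
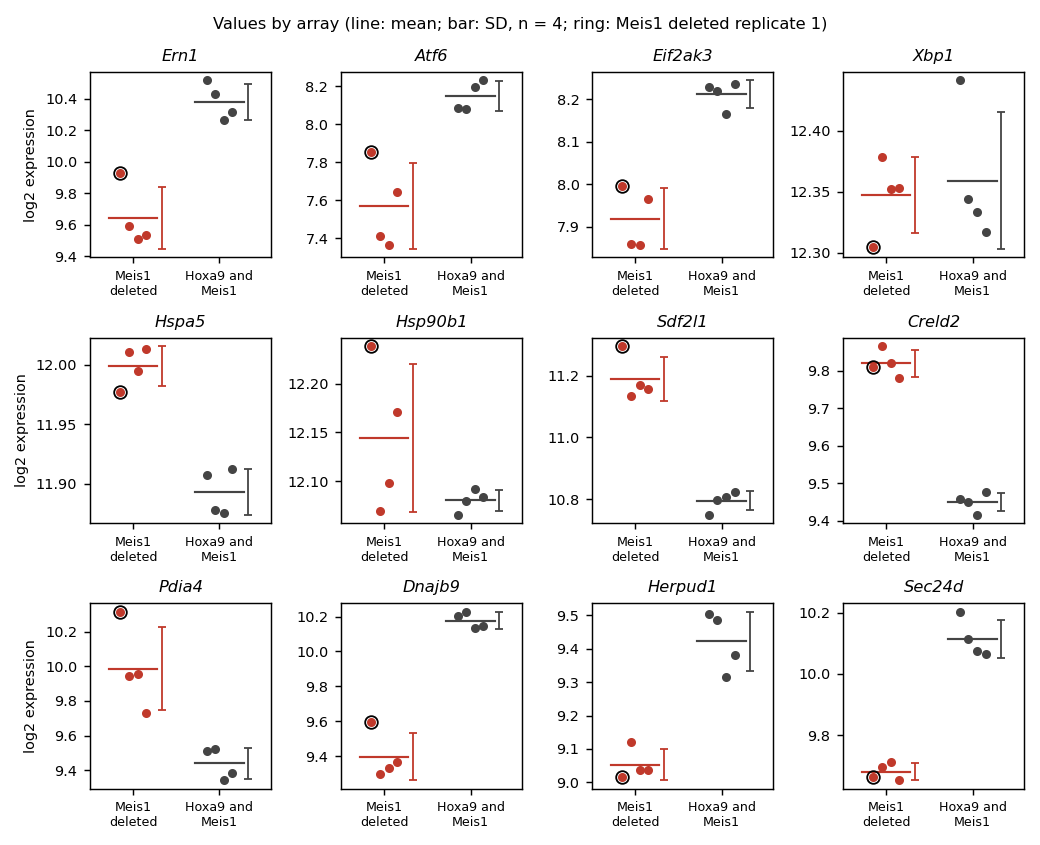
Log2 level of 12 genes in each array, Meis1 deleted arrays left of Hoxa9 and Meis1 arrays; lines are group means, bars the SD (n = 4), rings mark Meis1 deleted replicate 1, and each panel has its own axis. Groups are separate in every panel but those of Xbp1 and Hsp90b1. Meis1 deleted replicate 1 is the highest of its group for Pdia4, at 10.31, and for Ern1, Atf6, Eif2ak3, Hsp90b1, Sdf2l1 and Dnajb9. It is the lowest for Xbp1, Hspa5 and Herpud1.

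The protein disulfide isomerase family, which makes and rearranges disulfide bonds, had 1 of 6 members higher and 2 lower (median -0.13). Over all genes 18.1% were higher and 17.5% lower, so the share of higher ones was near that of all genes. Pdia4 measured 10.31, 9.94, 9.96 and 9.73 in Meis1 deleted arrays, against 9.51, 9.53, 9.34 and 9.38 in Hoxa9 and Meis1 arrays. It was 1.46 times as high, with no overlap and a wide spread among the Meis1 deleted arrays (0.55 ± 0.11, limma adjusted p = 0.00426). Without Meis1 deleted replicate 1 the difference was 0.44 (adjusted p = 0.00121), and within the bioB sets it was 0.55 and 0.37. Pdia5 measured 8.38, 8.28, 8.32 and 8.37 in Meis1 deleted arrays, against 8.64, 8.72, 8.69 and 8.83 in Hoxa9 and Meis1 arrays, again with no overlap and in the opposite direction (-0.38 ± 0.05, limma adjusted p = 4.35e-04). P4hb, the classical isomerase PDI, was slightly lower (-0.15 ± 0.04, limma adjusted p = 0.0318). That call was lost without Meis1 deleted 2, 3 or 4 or Hoxa9 and Meis1 1, 2 or 3 (-0.13 to -0.15, adjusted p up to 0.0864). Pdia6 (0.01 ± 0.05), Erp44, which retains folding enzymes in the early secretory pathway (-0.13 ± 0.05), and Dnajc10, the reductase ERdj5 (-0.13 ± 0.05), were not called. Erp44 passed without Meis1 deleted 2 (-0.16, adjusted p = 0.0472), Dnajc10 without Meis1 deleted 1 (-0.16, adjusted p = 0.028), and a second Erp44 probe set was lower by -0.31.

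ER-associated degradation, which extracts misfolded proteins for the proteasome, had 2 of 10 members higher and 4 lower (median -0.10). Over all genes 18.1% were higher and 17.5% lower, so the share of higher ones was near that of all genes. Herpud1, a membrane organiser of the degradation complex, measured 9.02, 9.12, 9.04 and 9.04 in Meis1 deleted arrays, against 9.50, 9.49, 9.32 and 9.38 in Hoxa9 and Meis1 arrays. The groups were apart, and both probe sets were lower (-0.37 and -0.44; -0.37 ± 0.06 SE for the first, limma adjusted p = 7.25e-04). Sel1l, the adaptor of the core ligase, was higher (0.26 ± 0.07, limma adjusted p = 0.022). Syvn1, the ubiquitin ligase HRD1 itself, was not called (-0.08 ± 0.07, limma adjusted p = 0.44), and the difference between these genes was not tested. Of 5 Sel1l probe sets, 3 were higher and 0 lower. The derlins, channel proteins of the same complex, differed in direction, with Derl1 lower (-0.24 ± 0.07, limma adjusted p = 0.02), Derl2 higher (0.20 ± 0.04, limma adjusted p = 0.00783) and Derl3 not called (0.08 ± 0.05) at levels of 5.35 in Meis1 deleted and 5.27 in Hoxa9 and Meis1 cells. Of 3 Derl1 probe sets the 2 others were not called (-0.08 and -0.11), and the mean of the 3 gave -0.14 (adjusted p = 0.0159 by limma). The second Derl2 probe set was not called and had the opposite sign (-0.09), and the mean of both gave 0.05 (adjusted p = 0.465).

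The Edem genes encode mannose-trimming lectins that pass glycoproteins to degradation. Edem2 (-0.26 ± 0.08, limma adjusted p = 0.0254) and Edem1 (-0.12 ± 0.04, limma adjusted p = 0.0365) were lower, while Edem3 missed the threshold (-0.14 ± 0.05, limma adjusted p = 0.0517). A second Edem1 probe set had the opposite sign and was not called (0.14). Os9, the lectin that hands substrates to the ligase, showed no call (-0.00 ± 0.07, limma adjusted p = 0.965), and its second probe set read 6.84 in Meis1 deleted replicate 1 and 7.61 to 7.68 in the other Meis1 deleted arrays. Several of these calls lay near the threshold and were lost when 1 array was left out, at nearly the same fold change. Derl1 was lost without Hoxa9 and Meis1 3 or 4 (-0.22 and -0.22, adjusted p up to 0.0572). Sel1l was lost without Meis1 deleted 4 or Hoxa9 and Meis1 1 or 4 (0.25 to 0.26, adjusted p up to 0.0551), and Edem2 without Meis1 deleted 4 or Hoxa9 and Meis1 1 or 2 (-0.22, adjusted p up to 0.0708). Edem1 was lost without any of the arrays except Meis1 deleted 1 (-0.11 to -0.12, adjusted p up to 0.0849). Edem3 passed without Meis1 deleted 1 (-0.17, adjusted p = 0.0204) or Hoxa9 and Meis1 3 (-0.17, adjusted p = 0.0424).

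The translocon subunits Sec61a1, Sec61b and Ssr3 and the export gene Sec24d were all lower (0 of 4 higher, 4 lower, median -0.25). Over all genes 18.1% were higher and 17.5% lower. Sec24d, a cargo-binding subunit of the COPII coat that buds vesicles from the ER, measured 9.66, 9.69, 9.71 and 9.65 in Meis1 deleted arrays, against 10.20, 10.12, 10.08 and 10.06 in Hoxa9 and Meis1 arrays. The gap was far wider than the spread in either group (0.74 times the level, -0.43 ± 0.05, limma adjusted p = 9.09e-05). Ssr3, a subunit of the translocon-associated protein complex, measured 11.22, 11.17, 11.20 and 11.11 in Meis1 deleted arrays, against 11.47, 11.51, 11.46 and 11.46 in Hoxa9 and Meis1 arrays, again with no overlap (-0.30 ± 0.04, limma adjusted p = 5.29e-04). Sec61a1 and Sec61b, subunits of the channel through which new proteins enter the ER, were lower by smaller amounts (-0.20 ± 0.05 with limma adjusted p = 0.00816, and -0.18 ± 0.05 with limma adjusted p = 0.0287). All 4 Sec61a1 probe sets were lower, and their mean gave -0.37 (adjusted p = 0.00682 by limma). The dimmest read 4.49 in Meis1 deleted replicate 1 and 5.29 to 5.32 in the other Meis1 deleted arrays. Another read 6.11 in that replicate and 6.89 to 7.10 in the others. The part of that array in the mean was not tested. The Sec61b call was lost without Meis1 deleted 2 or 3 or Hoxa9 and Meis1 2, 3 or 4 (-0.16 to -0.18, adjusted p up to 0.083).

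**Figure D3:**
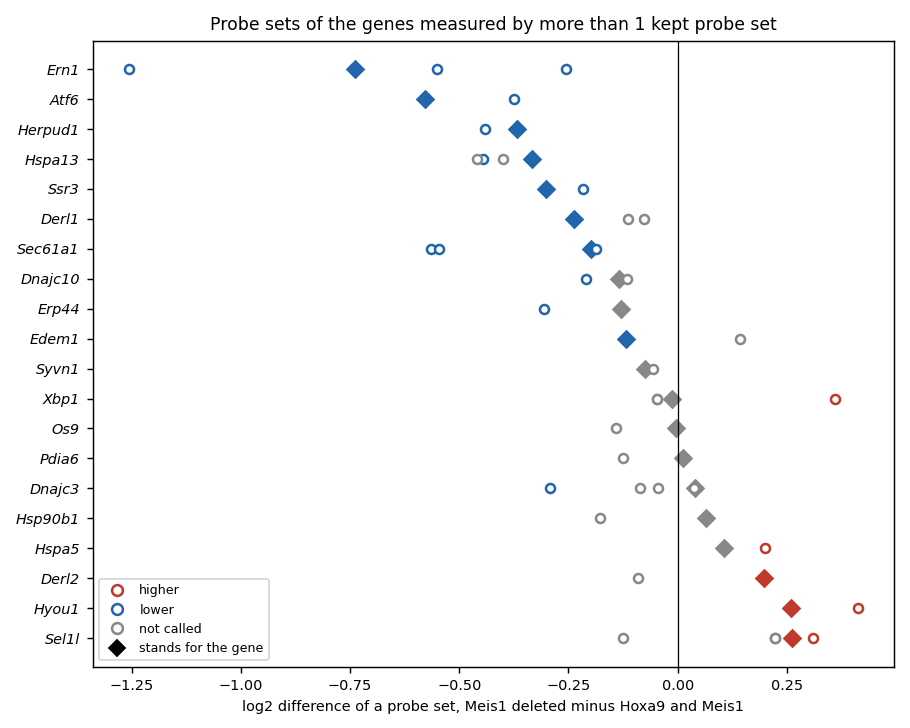
Difference in log2 level, Meis1 deleted minus Hoxa9 and Meis1, for each kept probe set of the 20 genes that have several; colour shows the call over all kept probe sets, and filled diamonds mark the probe set that stands for its gene. No gene has probe sets called in both directions.

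Probe sets of 1 gene mostly pointed the same way. Among 20 genes with several kept probe sets, 13 had all of them on 1 side of 0. Of the 71 kept probe sets 12 were higher, 28 lower and 31 not called. That is 56.3% called, against 31.3% of all kept probe sets. In 5 genes that were not called, a probe set other than the one standing for the gene was called: higher for Hspa5 (0.20) and Xbp1 (0.36), and lower for Dnajc3 (-0.29), Dnajc10 (-0.21) and Erp44 (-0.31).

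Other genes of the same pathways, taken from lists by function, were read beside these. ER folding and oxidation genes had 3 of 33 higher and 16 lower (57.6% called, median -0.13, against 35.5% and -0.00 over all genes). Ero1a and Ero1b, the oxidases that recharge the disulfide isomerases, were lower (-0.63 ± 0.04, limma adjusted p = 5.16e-06, and -0.35 ± 0.04, limma adjusted p = 2.43e-04). Rcn1, a calcium-binding protein, was lower (-0.43 ± 0.05), while Mlec, a lectin for new glycoproteins, was higher (0.33 ± 0.05). Calr, the soluble glycoprotein chaperone, was higher at 11.80 to 11.91 in Meis1 deleted arrays, against 11.33 to 11.53 in Hoxa9 and Meis1 arrays (0.40 ± 0.06, limma adjusted p = 7.05e-04). Its membrane-bound relative Canx (0.11 ± 0.05, limma adjusted p = 0.108) and Pdia3 (0.21 ± 0.10, limma adjusted p = 0.148) were not called.

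Translocon, signal peptidase and oligosaccharyl transferase genes had 1 of 25 higher and 12 lower, against 18.1% and 17.5% of all genes (median -0.13). That is 52.0% called, against 35.5% of all genes and 43.0% of those with a mean level of at least 9. Srprb and Srpr, the receptor for the signal recognition particle, were lower (-0.48 ± 0.06 and -0.27 ± 0.06), as was Rpn2, a glycosylation subunit (-0.19 ± 0.04), while Sec62, a post-translational import factor, was higher (0.24 ± 0.04). COPII coat genes had 0 of 15 higher, against 18.1% of all genes, and 5 lower (33.3%, against 17.5%), with a median of -0.13. The lower ones included the inner-coat subunits Sec23a (-0.25 ± 0.05) and Sec23b (-0.15 ± 0.04), the GTPase Sar1a (-0.19 ± 0.04) and the cargo adaptor Sec24a (-0.19 ± 0.06). Further degradation genes had 2 of 21 higher and 3 lower (23.8%, below the share of all genes). These were Fbxo6, a glycoprotein-binding ligase subunit (0.29 ± 0.05, higher), and Faf2 (0.17 ± 0.06, higher), the conjugating enzyme Ube2j2 (-0.21 ± 0.05, lower), Selenos (-0.18 ± 0.05, lower) and the ligase Rnf139 (-0.15 ± 0.05, lower).

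The list of regulators of the response also holds linked genes such as Stc2, Bloc1s1 and Hgsnat. It had 3 of 22 higher and 7 lower, against 18.1% and 17.5% of all genes (45.5% called, against 35.5% of all genes, median -0.05). Atf4, the factor made when PERK or related kinases act, measured 10.49, 10.62, 10.65 and 10.62 in Meis1 deleted arrays, against 11.08, 11.09, 11.11 and 11.12 in Hoxa9 and Meis1 arrays. It was lower with no overlap (-0.51 ± 0.05, limma adjusted p = 3.63e-05), as were the ATF4-linked genes Trib3 (-0.55 ± 0.06, limma adjusted p = 1.3e-04) and Stc2 (-0.77 ± 0.06, limma adjusted p = 1.71e-05). Ddit3, which encodes CHOP (0.09 ± 0.07, limma adjusted p = 0.358), and Ppp1r15a, the phosphatase subunit that restores translation (0.01 ± 0.05, limma adjusted p = 0.912), were not called. Bloc1s1 and Hgsnat are known as transcripts that IRE1 can cleave. Bloc1s1, whose protein belongs to lysosome-related organelle complexes, was not called (-0.00 ± 0.05, limma adjusted p = 0.963), and Hgsnat, a lysosomal enzyme, was higher (0.95 ± 0.05, limma adjusted p = 1.05e-06). Chaperones of the cytosol and mitochondria had 3 of 23 higher and 8 lower (47.8% called, median -0.03). Their median level was 10.65 in Hoxa9 and Meis1 arrays. Of all genes with a mean level of at least 9, 43.0% were called, so the share of these chaperones was near that. Among these chaperones Hsph1 (0.55 ± 0.05) and Hspe1 (0.26 ± 0.04) were higher, Dnajb1 (-0.58 ± 0.05) and Dnajb6 (-0.17 ± 0.04) were lower, and Hspa8 was not called (0.05).

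**Figure D4:**
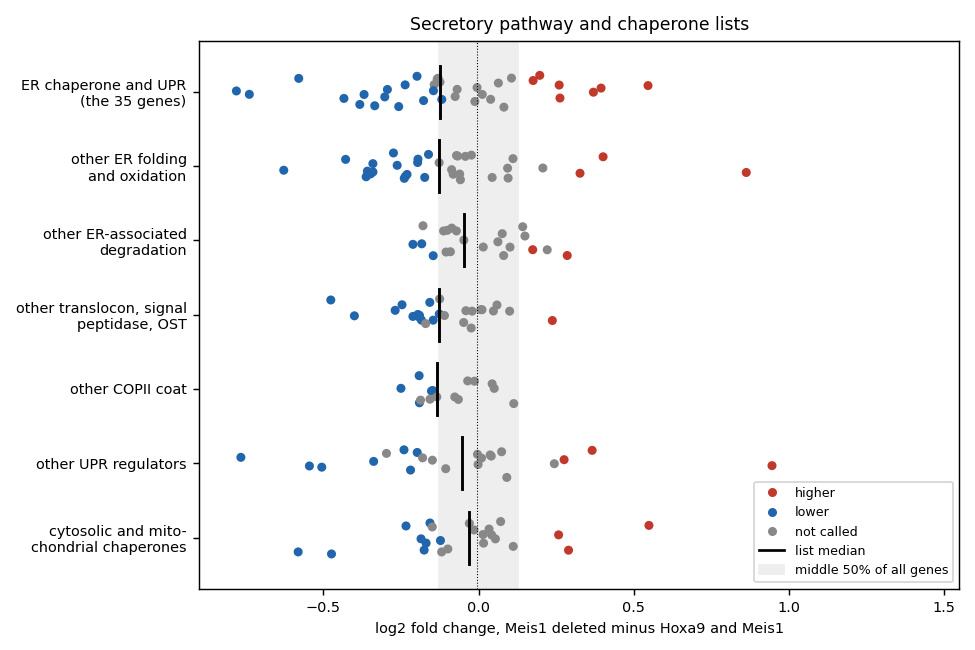
Log2 fold change, Meis1 deleted minus Hoxa9 and Meis1, of every tested gene in the 35-gene list and 6 related lists, with a bar for each list's median and shading for the middle 50% of all genes. Medians range from -0.13 to -0.03, and called genes lie on both sides of 0 in every list but the COPII coat.

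The genes with an ERSE were read separately. Of the 7 member genes that hold it, 1 was higher (Creld2), 0 were lower and 6 were not called (median 0.06). The 22 with a promoter but no exact ERSE match had 5 higher and 11 lower (median -0.14). The difference between these sets was not tested, and 35.5% of all tested genes were called, so most were not. Of the 6, Hspa5 passed as higher in 8 of 22 alternatives, and Dnajc3 (higher) and Syvn1 (lower) in 1 each. Outside the 35 genes, 10 tested genes held an ERSE: Calr was higher, Ero1b and Pan2 were lower and 7 were not called (median -0.05). Of the ERSE-II pair, Dnajb11 was higher and Herpud1 lower, and of 6 other tested genes with it 3 were lower and 3 not called. The lower ones, Rbm39, Krtcap2 and Lgalsl, and Pan2 above were named after their values were seen. The UPRE of Sec24d and the CARE of Herpud1 were each in 1 member gene only. Of 95 other tested genes with a UPRE, 18 were higher and 23 lower (median -0.02). Of 73 others with a CARE, 14 were higher and 14 lower (median -0.01). Among all genes 18.1% were higher and 17.5% lower.

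**Figure D5:**
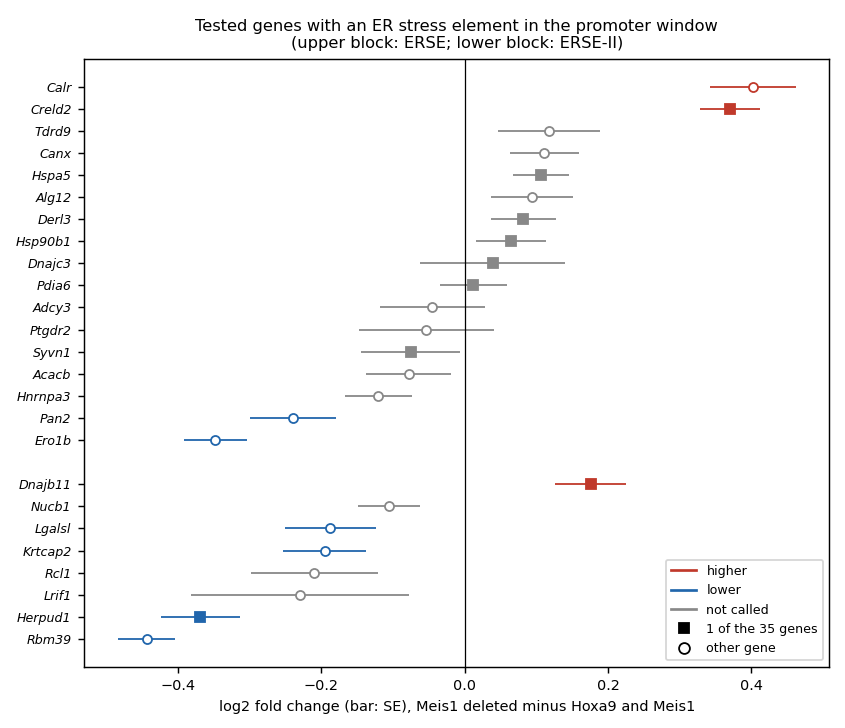
Log2 fold change with standard error, Meis1 deleted minus Hoxa9 and Meis1, of the tested genes with an ERSE (upper block) or ERSE-II (lower block) in the promoter window; filled squares are genes of the 35. Creld2 and Calr lie highest among ERSE genes, and most others are not called.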

How the data were processed

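Gene expression of 8 samples was measured on Affymetrix arrays, 4 per group. The deposited values are log2 expression values by the authors, judged as log2 from their range. MAS5 is named, with no version, per the submitters' processing notes, and no source used here names the summarisation method. No detection calls were used. Groups came from the sample titles.

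Probe sets in the lowest 40% by mean (below log2 4.29) were left out, which kept 27022 of 45037. limma 3.58.1 (R 4.3.3; lmFit, eBayes) was fitted to the kept probe sets. The highest-mean probe set stood for a gene, and p-values were adjusted by Benjamini-Hochberg over 11836 genes, at a threshold of 0.05. The fit was tested on simulated data. Of genes given a log2 change of 0.25 there, 23 of 50 were called, and of those given 0.5, 43 of 50, with 5 false calls. A gene that was not called may therefore have changed by a small amount. The number of arrays per group limits the precision.

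The genes and lists were chosen with earlier results of these data known. Values in all arrays are given for called genes with a log2 fold change of at least 0.3 in size, and for Eif2ak3, Xbp1, Hspa5 and Hsp90b1. From other lists, up to 4 genes with the smallest adjusted p and 9 preset genes are named. Faf2 and the arrays of Atf4 were added after the values were seen. Promoters came from RefSeq (GRCm38.p6). Alternatives covered offset, normalization, filter, probe set choice, variance model, array weights, replicate number, bioB set and each array left out. 2 were added after seeing the data: a spread moderated over genes alone, and the bioB block without Meis1 deleted replicate 1.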

Additional observations from a re-analysis of the deposited data

Results flagged for a closer look

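In 3 of 70 groups of 4 arrays, 1 array lay far from the other 3 by Dixon's criterion; chance alone gives about 1 in 20. Edem3 read 9.12 in Meis1 deleted replicate 1, and the nearest other array of that group read 9.03. Hspa13 read 10.14 in Meis1 deleted replicate 4, and the nearest read 10.24. Syvn1 read 9.29 in Hoxa9 and Meis1 replicate 1, and the nearest read 9.15.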

How the results depend on the processing

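Of 22 called genes, 8 kept the call under all 22 alternatives: Ern1, Dnajb9, Sdf2l1, Creld2, Pdia4, Sec24d, Ssr3 and Hspa13. The other 14 lost it in at least 1. The second bioB set has 1 Meis1 deleted array. Leaving aside the fits within a bioB set, 14 genes kept the call under the other 20 alternatives: these 8 with Atf6, Eif2ak3, Herpud1, Hyou1, Pdia5 and Sec61a1. Of the uncalled genes, 7 (Hspa5, Dnajc3, Dnajc10, Edem3, Syvn1, Erp44 and Calu) passed in at least 1. After quantile normalization Edem1 and P4hb were not called (adjusted p = 0.0595 and 0.0775 by limma). Fewer arrays were tested within a bioB set: 4 genes were higher and 9 lower in the first, 3 higher and 6 lower in the second. With 1 array left out, 5 to 8 were higher and 11 to 18 lower, with medians from -0.14 to -0.11. With the bioB block and without Meis1 deleted replicate 1, 9 were higher and 19 lower.

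Signs turned for 6 genes, and the cause was not tested. Xbp1 gave 0.0127 after quantile normalization, 0.0637 as the mean of its probe sets, 0.0276 within the second bioB set and -0.0258 to 0.0155 with 1 array left out. As means of probe sets, Hsp90b1 gave -0.0569, Dnajc3 -0.0694, Edem1 0.0122 and Pdia6 -0.0567. Os9 gave 0.00816 with the bioB block, 0.0196 within the first set and -0.0687 to 0.0383 with 1 array left out. With 1 array left out Dnajc3 ranged from -0.0162 to 0.146 and Pdia6 from -0.00768 to 0.0315.

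Replicate numbers did not pair the arrays: deviations of same-numbered arrays correlated at 0.03, 0.22, -0.13 and 0.29, and 1 of 4 numbers correlated best with itself. With the replicate block 7 genes were higher and 12 lower, since Edem1, P4hb and Sec61b were no longer called (adjusted p = 0.0896, 0.0657 and 0.0553 by limma). Of all genes 3906 were called with that block, against 4206 without it. Without detection calls, signal and background cannot be told apart for genes of low level such as Derl3.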
